A study of Mus musculus with 53 samples.

Results

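The splicing factors described here are the 52 genes whose symbols begin with Srsf, Hnrnp, Snrp, Sf3a or Sf3b among the 14833 genes listed for single mouse T1 pre-HSCs. They comprise 11 Srsf genes (SR proteins), 20 Hnrnp genes (heterogeneous nuclear ribonucleoproteins, hnRNPs), 12 Snrp genes (proteins of the small nuclear ribonucleoproteins, snRNPs), 3 Sf3a genes and 6 Sf3b genes. Names ending in -ps, which mark pseudogenes, were left out, and this removed 1 name. T1 pre-HSCs are type 1 precursors of haematopoietic stem cells, sorted here as single cells from the aorta-gonad-mesonephros region of mouse embryos at E11. KO cells, numbered 1 to 12, carried the genotype mH19 delta_DMR/+, a deletion of the differentially methylated region at H19, and cells called wildtype, numbered 13 to 22, carried mH19 flDMR/+, in which that region is floxed. The wildtype cells are therefore floxed controls, and the Cre line behind the deletion is not given in the sources used here. No embryo, litter or sort is named for any cell, so each genotype counted as 1 sample, cells could not serve as replicates, and the genotypes were compared without a test.

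Introns are removed from pre-mRNA by the spliceosome, a machine built from snRNPs, most of which hold a small nuclear RNA in a ring of Sm proteins. U1 recognises the 5′ splice site, and U2, with the SF3A and SF3B complexes, the branch point. SR proteins mostly bind exons and favour their inclusion, and hnRNPs coat nascent RNA and often oppose them, so that the balance between these families helps to set which exons are kept. Most of these genes are active in nearly all cell types, and a few, such as Snrpn, are restricted.

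Values are RPKM, which divides a gene's reads by its transcript length and by the cell's mapped reads. This puts genes on a common scale, but how evenly these libraries captured different genes was not tested, so rankings between genes are approximate. A gene was called detected in a cell at 1 RPKM or more. H19 itself, the targeted locus, ranged from 0 to 186 RPKM in KO cells and, in wildtype cells, from 231 to 1261 RPKM, and these ranges did not overlap. Wildtype cell 19 was not used, since its column was displaced against the gene names in 24 of 29 stretches of 500 rows, and none of the other 21 cells showed such a stretch. KO cells held 1517 to 8408 detected genes (median 3172) and wildtype cells 2067 to 5716 (median 4176). KO cells 1, 9 and 12 had fewer genes than any wildtype cell, and KO cells 2, 4, 5 and 6 had more. Of 10 genes listed for pre-HSC identity, not all of them particular to T1, Procr was found in 9 of the 12 KO cells and 8 of the 9 wildtype cells. Ptprc was found in 1 cell of each genotype. In KO and wildtype cells, Cdh5 was found in 7 and 7, Tek in 7 and 6, Pecam1 in 6 and 6 and Kit in 7 and 5. Kdr and Emcn were each found in 6 and 4, Itga2b in 3 and 3 and Cd34 in 3 and 1. KO cells 1, 3 and 9 and wildtype cells 13 and 14 held at most 2 of these 10 genes, and they had 19, 37, 25, 29 and 42 splicing factors detected. The summed level of 6 mesenchymal genes was highest in cell 11 among KO cells (685 RPKM) and in cell 14 among wildtype cells (243 RPKM). There 5 and 4 of the genes were detected, and the genotype medians were 5.44 and 0.65 RPKM. KO cells 9 and 1 followed at 322 and 183 RPKM, with 2 and 1 of the genes detected, and wildtype cell 20 at 117 RPKM, with 2. Pdgfra was below 1 RPKM in every cell. The 5 listed erythroid genes summed to at most 148 RPKM in a KO cell and 30.4 RPKM in a wildtype cell. The 3 listed macrophage genes, mostly Lyz2, summed to at most 700 RPKM in a KO cell (median 2.21) and 1951 RPKM in a wildtype cell (median 71.8). Krt8 and Krt18, the listed genes of the neural and epithelial list, summed to at most 479 RPKM in a KO cell (median 8.55) and 520 RPKM in a wildtype cell (median 121), nearly all of it Krt18. The part of these markers in the values below was not tested.

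Most splicing factors were detected in the majority of cells. The median member was detected in 75.0% of the KO cells and in 88.9% of the wildtype cells, against 16.7% and 22.2% for all listed genes. The 5 members detected in every cell were Hnrnpa1, Hnrnpk, Snrpe, Snrpf and Snrpg, which is 9.62% of members, beside 1.70% of all listed genes. A further 27 members were detected in 16 to 20 of the 21 cells and 12 in 11 to 15 cells. Hnrnpll, Sf3a1, Snrpn and Srsf9 were detected in 6 to 10 cells, and Hnrnpul2, Sf3a2, Srsf4 and Srsf12 in 5 or fewer. The median member lay at 73.7 RPKM in the median wildtype cell, and members together took 0.69% to 1.51% of a wildtype cell's total RPKM and 0.54% to 1.79% of a KO cell's. Comparisons of genotypes used genes detected in 50% or more of the KO cells or of the wildtype cells. This filter kept 45 members of 3867 genes in all. The 7 members outside it were Hnrnpll, Hnrnpul2, Sf3a2, Snrpn, Srsf4, Srsf9 and Srsf12.

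**Figure D1:**
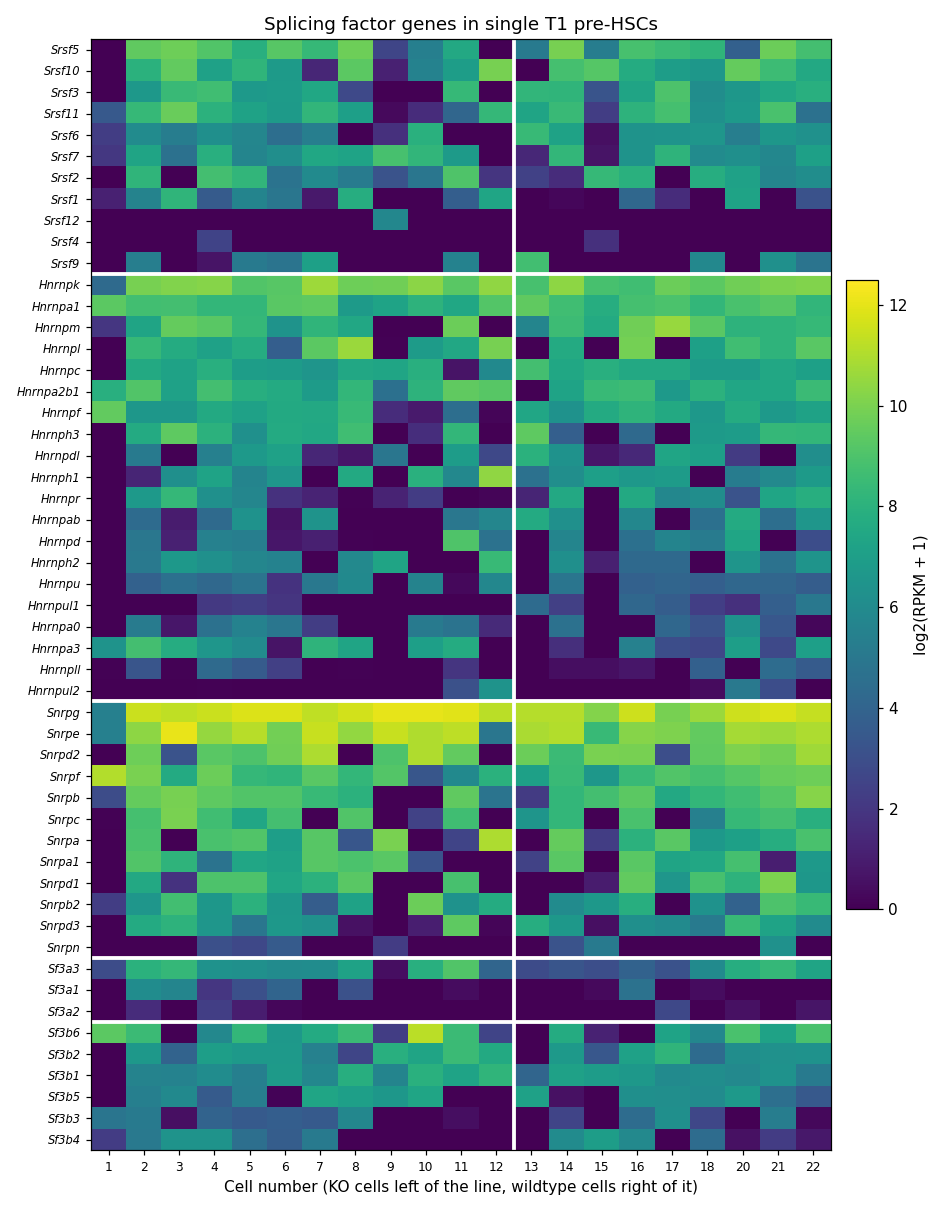
Level of each of the 52 members (rows, grouped by family) in each of the 21 cells (columns, KO cells 1 to 12 and wildtype cells 13 to 22 without 19), as log2(RPKM + 1) on the colour scale. The rows of Snrpe, Snrpf, Snrpg, Hnrnpk and Hnrnpa1 are filled in every cell, and the columns of KO cells 1 and 9 hold the fewest detected members, 19 and 25.

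Promoter sequences are shown for 5 of the 21 members described in full, those with a single listed start whose upstream 150 bases overlap no annotated gene. They are Snrpe and Snrpg, detected in every cell, and Sf3b6, Hnrnpm and Srsf6, whose mean levels differed most between genotypes among the genes that qualified. Each is the stretch of 150 bases ahead of the start, read on the gene's strand 5′ to 3′, from RefSeq on GRCm38.p6, the assembly also called mm10. The windows are chr6:86371390-86371539 (plus strand) for Snrpg, chr1:133610281-133610430 (minus) for Snrpe, chr12:4817458-4817607 (plus) for Sf3b6, chr17:33685459-33685608 (minus) for Hnrnpm and chr2:162931358-162931507 (plus) for Srsf6. Capitals mark matches, on either strand, to 4 motifs, and adjoining or overlapping matches run together. The ETS family is searched as CCGGAAG, the letters bound by the factor NFY as CCAAT, those bound by SP factors as GGGCGG, and the box bound by the TATA-binding protein as TATAAA.
Snrpg: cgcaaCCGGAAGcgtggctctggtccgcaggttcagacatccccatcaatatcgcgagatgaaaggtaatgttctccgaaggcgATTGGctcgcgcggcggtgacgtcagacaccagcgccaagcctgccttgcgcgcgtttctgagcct
Snrpe: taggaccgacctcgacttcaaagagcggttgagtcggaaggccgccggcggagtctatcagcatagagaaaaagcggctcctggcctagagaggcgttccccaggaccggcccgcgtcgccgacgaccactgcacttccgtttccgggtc
Sf3b6: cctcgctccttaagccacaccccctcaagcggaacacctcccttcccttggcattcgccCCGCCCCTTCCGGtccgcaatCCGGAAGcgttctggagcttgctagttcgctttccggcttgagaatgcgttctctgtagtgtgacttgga
Hnrnpm: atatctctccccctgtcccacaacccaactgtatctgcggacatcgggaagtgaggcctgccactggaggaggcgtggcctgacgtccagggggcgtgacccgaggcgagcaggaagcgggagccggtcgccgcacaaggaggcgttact
Srsf6: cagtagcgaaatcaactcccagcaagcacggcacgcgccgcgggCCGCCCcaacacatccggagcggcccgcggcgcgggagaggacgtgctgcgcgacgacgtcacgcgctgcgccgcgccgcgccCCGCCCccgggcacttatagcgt
Snrpg held 1 ETS match and 1 CCAAT match read on the other strand, Sf3b6 held ETS matches on both strands and 1 SP match that adjoins the first, Srsf6 held SP matches, and Snrpe and Hnrnpm held no match to these letters. Of the 52 members, 46 were matched to a window of 150 bases ahead of their first listed start. A single start was listed for 37 of them, and most of these windows overlap an annotated gene, unlike those shown. ETS matches occurred in 23.9% of these 46, in 11.2% of the 9843 promoters of genes listed for the T1 pre-HSCs and in 5.68% of 27025 promoters in all. CCAAT occurred in 39.1%, 27.8% and 25.3% of these sets, GGGCGG in 52.2%, 51.8% and 29.0% and TATAAA in 6.52%, 3.45% and 8.08%. By family, ETS was found in 2 of 11 Srsf, 1 of 18 Hnrnp, 3 of 10 Snrp, 3 of 3 Sf3a and 2 of 4 Sf3b promoters. CCAAT was found in 3, 11, 3, 0 and 1 of them, in the same order, and GGGCGG in 10, 8, 3, 1 and 2. The median GC content was 62.0% for members and 62.7% for genes listed in these cells. A match describes letters in this window and shows no binding, and these cells hold no binding measurement.

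Snrpg, Snrpe and Snrpd2, genes of the Sm ring, had the highest medians in wildtype cells. The ring is made of 7 proteins that close around the small nuclear RNA, and its genes are Snrpb, Snrpd1, Snrpd2, Snrpd3, Snrpe, Snrpf and Snrpg. Snrpg lay at 42.4, 3070 and 4245 RPKM (lowest, median and highest KO cell) and at 964, 2243 and 3562 RPKM in wildtype cells. Snrpe lay at 28.5, 1753 and 4342 RPKM in KO and 342, 1609 and 2148 RPKM in wildtype cells. Snrpf lay at 9.08, 312 and 2142 RPKM in KO and 95.8, 454 and 853 RPKM in wildtype cells. For these 3 genes the ranges of the genotypes overlapped, and the KO range was the wider. In wildtype cells Snrpe and Snrpg alone made up 20.5% to 41.7% of the summed RPKM of all members, with a median of 29.5%. In KO cells that share was 1.81% to 58.3%, with a median of 35.8%, and the lowest was cell 1, the same cell in which Snrpf had its highest value. The full set of 7 ring genes was detected in 7 of 12 KO cells, against 6 of 9 wildtype cells. Snrpe and Snrpg have processed pseudogenes elsewhere in the genome, and the authors' treatment of reads that fit several places is not given in the sources used here, so these levels are uncertain.

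**Figure D2:**
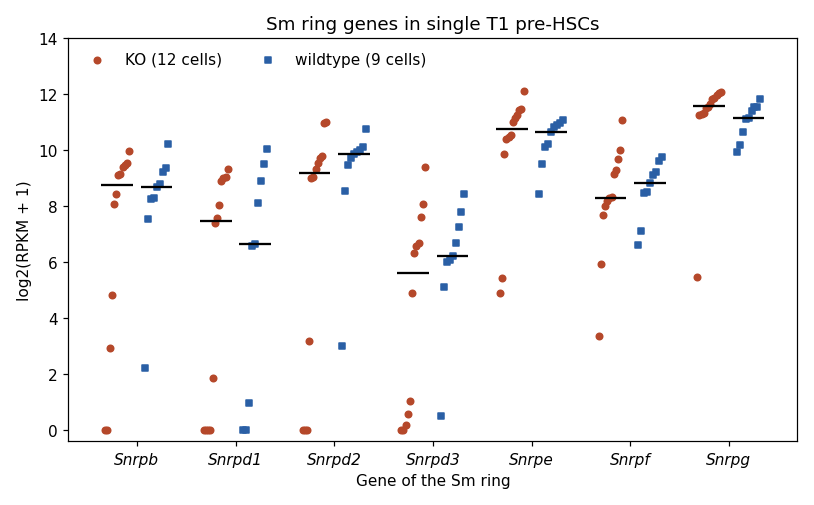
Level of each Sm ring gene as log2(RPKM + 1) in each of 12 KO and 9 wildtype cells (points, sorted by value within a genotype), with a bar at each genotype's median. Snrpg and Snrpe sit highest in both genotypes, and Snrpb, Snrpd1, Snrpd2 and Snrpd3 have KO cells at 0.

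The other 4 ring genes were less evenly detected. Snrpd2 lay at 0, 577 and 2053 RPKM in KO and 6.91, 918 and 1704 RPKM in wildtype cells, and was detected in 9 of 12 and 9 of 9. Snrpb lay at 0, 440 and 995 RPKM in KO and 3.58, 402 and 1186 RPKM in wildtype cells. Snrpd3 lay at 0, 53.6 and 676 RPKM in KO and 0.413, 73.5 and 339 RPKM in wildtype cells. Snrpd1 lay at 0, 177 and 628 RPKM in KO and 0, 97.8 and 1054 RPKM in wildtype cells. In each case the ranges overlapped and the lower end of the KO range was at 0. Snrpn is an imprinted gene, transcribed from the paternal chromosome, whose protein is nearly identical to that of Snrpb and is best known from neurons. It was detected in KO cells 4, 5, 6 and 9 at 7.41, 5.61, 11.0 and 3.60 RPKM and in wildtype cells 14, 15 and 21 at 8.08, 33.3 and 77.7 RPKM, and was below 1 RPKM in the remaining cells. Because of that likeness, reads of Snrpb and Snrpn may have been split between them.

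Proteins particular to U1 (Snrpa, Snrpc) and U2 (Snrpa1, Snrpb2) were detected in 7 to 8 of 9 wildtype and 8 to 11 of 12 KO cells. Snrpa had medians of 302 RPKM (KO) and 223 RPKM (wildtype), and Snrpc of 285 and 234 RPKM. Snrpa1 had medians of 157 and 158 RPKM and Snrpb2 of 97.3 and 81.1 RPKM. All of these ranges began at 0 in both genotypes, and they overlapped. All 4 genes were detected together in 5 of 12 KO cells, against 6 of 9 wildtype cells.

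Among hnRNPs, Hnrnpk and Hnrnpa1 led. Hnrnpk, a KH-domain protein that binds C-rich RNA, lay at 18.7, 931 and 1636 RPKM in KO and 408, 832 and 1331 RPKM in wildtype cells. Hnrnpa1, an antagonist of SR proteins at many exons, lay at 113, 362 and 665 RPKM in KO and 223, 453 and 697 RPKM in wildtype cells. Both were present in every cell, and their genotype ranges overlapped. Hnrnpa1, like other abundant genes, has processed pseudogenes that can take or lend reads. Hnrnpm, a regulator of alternative exons, followed in the wildtype cells, with 0, 167 and 822 RPKM in KO and 50.6, 325 and 1537 RPKM in wildtype cells. Hnrnpll and Hnrnpul2 had medians under 1 RPKM in both genotypes, as Hnrnpul1 had in KO cells.

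Of the SR proteins, Srsf5, Srsf10 and Srsf3 were the highest in wildtype cells. Srsf5 lay at 0, 285 and 858 RPKM in KO and 13.5, 369 and 963 RPKM in wildtype cells. Srsf10, a splicing repressor when dephosphorylated, lay at 0, 131 and 994 RPKM in KO and 0, 205 and 750 RPKM in wildtype cells. Srsf3, the smallest of the classical SR proteins, lay at 0, 102 and 409 RPKM in KO and 8.57, 182 and 509 RPKM in wildtype cells. The KO range began at 0 for all 3, and the genotypes overlapped. Srsf12 was detected in KO cell 9 alone, at 53.9 RPKM. Srsf4 was detected in 1 cell of each genotype, at 4.75 RPKM in KO and 2.27 RPKM in wildtype.

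SF3A, the trimer that joins U2 before the branch point is bound, was detected very unevenly among its subunits. Sf3a3 was detected in 11 of 12 KO cells, against 9 of 9 wildtype cells, at 0.392, 79.7 and 552 RPKM in KO and 6.22, 14.3 and 320 RPKM in wildtype cells. Sf3a1 was detected in KO cells 2, 3, 4, 5, 6 and 8, at 67.5, 50.5, 2.96, 7.28, 15.5 and 7.66 RPKM, but in wildtype cell 16 alone, at 25.2 RPKM. Sf3a2 was detected in 3 KO cells and 1 wildtype cell, at up to 5.65 RPKM. All 3 subunits were detected together in KO cells 2, 4 and 5, which are among the cells with the most genes, and in no wildtype cell. In SF3B, which contacts the branch point, Sf3b1, its largest subunit, lay at 0, 60.3 and 290 RPKM in KO and 15.7, 68.7 and 140 RPKM in wildtype cells. Sf3b6, the subunit next to the branch point adenosine, lay at 0, 252 and 2359 RPKM in KO and 0, 144 and 480 RPKM in wildtype cells, the highest value being that of KO cell 10. Sf3b2 lay at 0.0148, 105 and 371 RPKM in KO and 0.0322, 78.0 and 291 RPKM in wildtype cells. These ranges overlapped as well. All 6 SF3B members were detected together in KO cells 2, 4, 5 and 7 and wildtype cells 18 and 21.

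**Figure D3:**
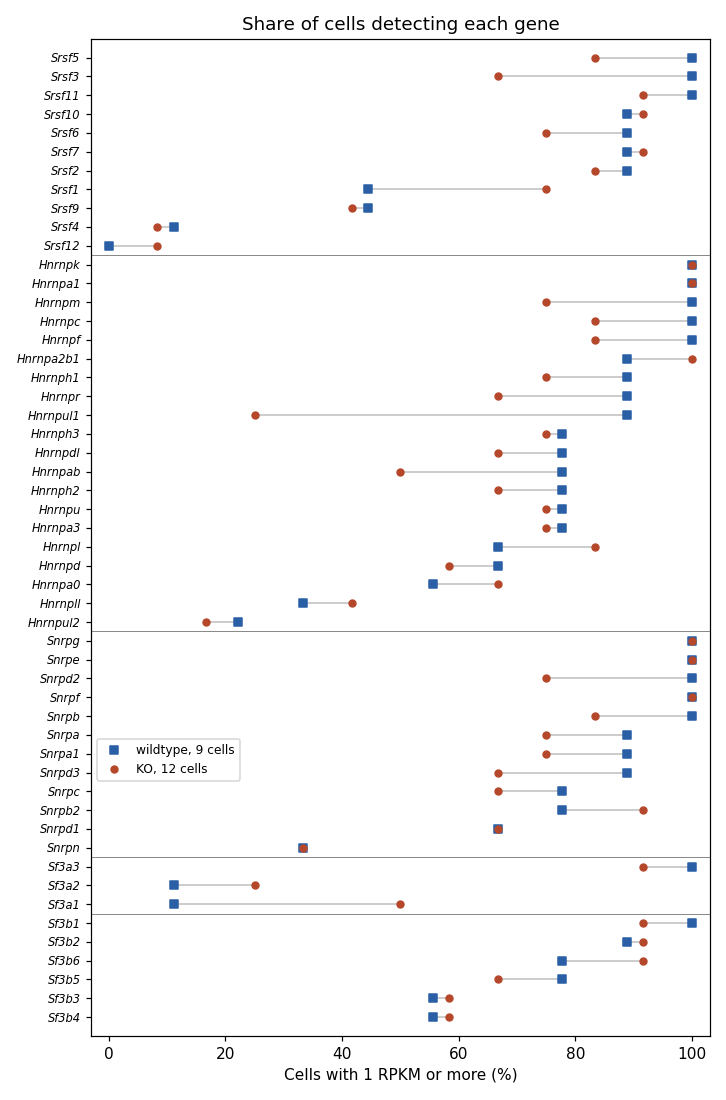
Percentage of KO cells (12, circles) and of wildtype cells (9, squares) in which each member is detected at 1 RPKM or more, grouped by family. Hnrnpul1 has the widest gap, 25.0% of KO against 88.9% of wildtype cells, and Sf3a1 and Srsf1 lie the other way.

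The number of splicing factors in a cell followed its number of detected genes. KO cells held 19 to 49 of the 52 members (median 37) and wildtype cells 27 to 45 (median 43). KO cells 1, 9 and 12, those of few genes, held 19, 25 and 27, and KO cells 2, 4, 5 and 6, those of many genes, held 47, 49, 49 and 44. Over the 21 cells, the number of members and the number of genes had a Pearson r of 0.88 and a Spearman rho of 0.97. Within KO cells r was 0.92 (12 cells) and within wildtype cells 0.80 (9 cells). Without KO cells 4 and 5, r over the remaining cells was 0.89. Both counts come from the same library, and the members are part of the gene count, so this is a description. Each family's share of the members' summed RPKM overlapped between the genotypes. Snrp genes took a median of 58.0% in KO and 54.9% in wildtype cells, Hnrnp genes 23.9% and 27.9%, and Srsf genes 9.71% and 12.8%. Sf3b genes took 3.92% and 3.76%, and Sf3a genes 0.68% and 0.27%.

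**Figure D4:**
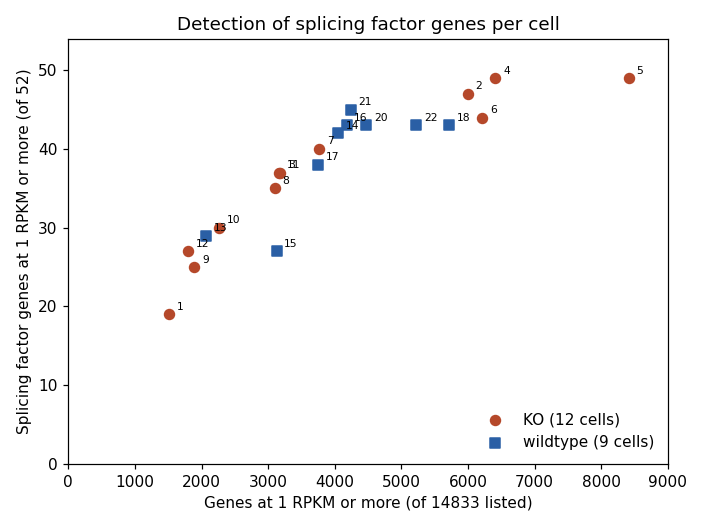
Number of the 52 members detected in a cell against the number of all genes detected in it, both at 1 RPKM or more, for 12 KO and 9 wildtype cells, labelled by cell number. Cells with more genes hold more members, from 19 in KO cell 1 to 49 in KO cells 4 and 5.

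Members varied widely from cell to cell. The SD of log2(RPKM + 1) over wildtype cells had a median of 2.46 over the 45 compared members and 2.60 over all compared genes. Hnrnpa1 (0.52), Hnrnpf (0.57), Hnrnpc (0.59), Hnrnpk (0.61) and Snrpg (0.65) varied least. Hnrnpl (4.30) and Snrpd1 (4.16) varied most. In KO cells the median SD was 3.01 over members and 2.79 over all compared genes. The KO SD was above the wildtype SD in 34 of 45 members (75.6%) and in 2349 of 3867 genes (60.7%). The numbers of cells differ between the genotypes and the KO cells differ more in detected genes, and the part of this in the spread was not tested.

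Between genotypes, 12 of 45 members (26.7%) were lower in KO by at least 1 on the scale of mean log2(RPKM + 1), and 4 (8.89%) were higher by at least 1. Over all 3867 compared genes, 28.0% were lower and 11.4% higher by that much, so the members' shares were near the background. The median difference was -0.31 over members and -0.36 over all compared genes. None of the 45 members had KO and wildtype ranges that did not overlap, beside 0.0517% of all compared genes. A difference of 1 is only a yardstick of size, and the pseudocount of 1 understates the differences of low genes. The 12 lower members were Hnrnpab, Hnrnpc, Hnrnpf, Hnrnpm, Hnrnpr, Hnrnpul1, Snrpb, Snrpd2, Snrpd3, Srsf3, Srsf6 and Srsf10, and the 4 higher were Hnrnpa3, Sf3a1, Sf3b6 and Srsf1. Sf3a1 and Srsf1 passed the filter on detection through KO cells alone, and Hnrnpul1 through wildtype cells alone, each the group where it was high. The detection shares of these 3 therefore had to differ, though not by a set amount.

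**Figure D5:**
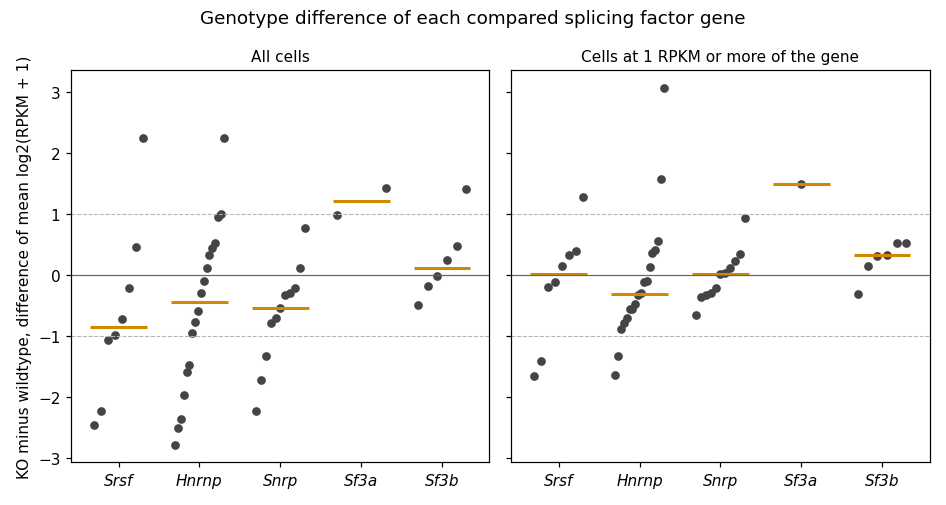
Difference of mean log2(RPKM + 1), KO minus wildtype, of each compared member by family (points) with the family median (bar), over all cells (left) and over cells at 1 RPKM or more of the gene (right), with dashed lines at -1 and 1. Family medians run from -0.86 (Srsf) to 1.21 (Sf3a) on the left, and those of Srsf and Snrp are 0.01 and 0.02 on the right.

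Which cells entered moved these counts. Without KO cells 1, 9 and 12, the cells of few genes, 6 of 47 members were lower and 13 higher by 1 or more, beside 14.1% and 25.9% of all compared genes. Without KO cells 2, 4, 5 and 6, the cells of many genes, 21 of 44 members were lower and 3 higher, beside 57.5% and 5.37%. With only the 5 KO cells inside the wildtype range of detected genes, 14 of 44 were lower and 10 higher, beside 41.4% and 14.5%. Hnrnpab, Hnrnpm, Hnrnpr, Hnrnpul1 and Srsf6 were lower by 1 or more, and Hnrnpa3, Sf3b6 and Srsf1 higher, in all 3 sets as well as over all cells. That is 5 and 3 of 44 members compared in each set (11.4% and 6.82%), beside 16.8% and 3.48% of 3330 genes. Hnrnpul1 and Srsf1 passed the filter through 1 genotype alone, so that they differ in each set is no further evidence. These sets share the 9 wildtype cells and the 5 KO cells inside the wildtype range, so their agreement is partly built in. With the cells of Xist under 1 RPKM as a further set, the 5 lower members and Srsf1 remained, while Hnrnpa3 (0.85) and Sf3b6 (0.70) were within 1, and the shares over all genes were 11.5% and 2.40%. When every cell was shifted to the same median of compared genes, 6 of 45 members (13.3%) were lower and 18 (40.0%) higher, beside 6.21% and 42.2% of all compared genes, and the median of all genes moved by 1.16. Under that shift the member median was 0.85 and that of all genes 0.79. The direction of the member median thus turned with the shift, and it also turned without the cells of few genes, where it was 0.33 beside 0.22 over all compared genes.

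Fewer members were lower by 1 or more when only detecting cells were averaged. The KO share of detecting cells was below the wildtype share in 30 of 52 members, above it in 15 and equal in 7. The share below was 57.7% of members, 59.4% of compared genes and 43.8% of all listed genes. When only cells at 1 RPKM or more of a gene were averaged, 44 members could be compared, and 4 were lower and 4 higher by 1 or more (9.09% each), beside 13.2% and 14.3% of all genes so compared. Their median difference was then -0.04, beside -0.0015 over 3618 genes. By family, that median was 0.01 for Srsf, -0.32 for Hnrnp, 0.02 for Snrp and 0.32 for Sf3b genes. For RPKM near 0, a cell without the RNA and a cell whose library missed it cannot be told apart.

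Of 8 compared SR genes, 3 were lower and 1 higher in KO by 1 or more. Of all compared genes, 28.0% were lower and 11.4% higher by that much. The family median was -0.86, beside -0.36 over all compared genes. The Srsf median was 0.33 without the KO cells of few genes and 0.30 with cells shifted to the same median. Over all compared genes, the median was 0.22 and 0.79 in these settings. Srsf5 differed by -0.99 over all cells but by 0.92 without the KO cells of few genes, 0.58 with KO cells inside the wildtype range and 0.33 over detecting cells. Srsf3 had a mean log2(RPKM + 1) of 4.67 ± 3.76 (SD over 12 KO cells) and 7.12 ± 1.69 (SD over 9 wildtype cells), a difference of -2.45. It was detected in 8 of 12 KO cells (66.7%, exact Clopper-Pearson 95% interval 34.9% to 90.1%) and 9 of 9 wildtype cells (66.4% to 100%), and over detecting cells the difference was -0.13. Such intervals cover counting error over cells only. Srsf6, another classical SR protein, lay at 0, 29.7 and 246 RPKM in KO and 0.434, 87.5 and 339 RPKM in wildtype cells, with a difference of -2.23. Over detecting cells, 9 of 12 KO and 8 of 9 wildtype, Srsf6 still differed by -1.66. Srsf10 differed by -1.07 over all cells and by -1.41 over detecting cells, but by 0.093 when cells were shifted to the same median. Its difference was within 1 without KO cell 1 (-0.51), 7 (-0.63) or 9 (-0.61) or without wildtype cell 14 (-0.87), 15 (-0.82), 20 (-0.77) or 21 (-0.90), and it was -1.97 without wildtype cell 13.

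Srsf1, the founding SR protein, differed in the other direction. It lay at 0, 20.8 and 291 RPKM in KO and 0, 0.164 and 152 RPKM in wildtype cells, and the ranges overlapped. It was detected in 9 of 12 KO cells, against 4 of 9 wildtype cells, and its mean was higher in KO by 2.24, with SDs of 3.01 and 2.57. Over detecting cells its difference was 1.28. Its difference was 2.66 without the KO cells of few genes, 1.81 without those of many genes and 2.29 with KO cells inside the wildtype range. Srsf1 passed the filter through KO cells alone and these sets share cells, so these values are no further evidence.

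Of 18 compared hnRNP genes, 6 (33.3%) were lower and 1 (5.56%) higher in KO by 1 or more. The shares over all compared genes were 28.0% and 11.4%. The family median was -0.45, beside -0.36 over all compared genes. Hnrnpul1, a relative of hnRNP U, had the widest gap in detection between the genotypes. It lay at 0, 0.0115 and 4.00 RPKM in KO and 0, 12.1 and 31.3 RPKM in wildtype cells. It was detected in 3 of 12 KO cells (25.0%, interval 5.49% to 57.2%) and 8 of 9 wildtype cells (88.9%, interval 51.8% to 99.7%). These intervals cover counting error over cells only, and the gene passed the filter through wildtype cells alone. The 3 KO cells were cells 4, 5 and 6, at 3.19, 4.00 and 2.76 RPKM, all among the cells of many genes. The difference of Hnrnpul1 was -2.52 over all cells, -2.35 without KO cells of few genes, -3.04 without those of many genes and -3.05 inside the wildtype range. It was -1.33 over detecting cells, -4.48 with a pseudocount of 0.1 and -0.86 with a pseudocount of 10, which is within 1. Because of the filter and the cells that these sets share, the repeated differences are no further evidence. The gene lies at chr7:25721161-25756268 in mm10.

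Hnrnpm differed by -2.78 (5.68 ± 3.98 in 12 KO and 8.47 ± 1.40 in 9 wildtype cells), the most negative difference of the compared members. It was detected in 9 of 12 KO cells, against 9 of 9 wildtype cells, and its difference was -1.11 without the KO cells of few genes. Hnrnpr differed by -2.37, Hnrnpab by -1.97, Hnrnpf by -1.59 and Hnrnpc by -1.48. Without the KO cells of few genes Hnrnpf differed by -0.95 and Hnrnpc by -0.94, both within 1, and over detecting cells by -0.56 and -0.34. Hnrnpc, which binds U-rich tracts, and Hnrnpf, which binds G-rich ones, were among the steadiest members in wildtype cells, where they lay at 114 to 439 and 83.0 to 278 RPKM, while their lowest KO values were 0 and 0.109 RPKM. Hnrnpa3, a close relative of Hnrnpa1 and Hnrnpa2b1, was the hnRNP gene that was higher by 1 or more. It lay at 0, 113 and 440 RPKM in KO and 0, 5.79 and 134 RPKM in wildtype cells, a difference of 2.24. Detection was similar, in 9 of 12 and 7 of 9 cells, and over detecting cells the difference of Hnrnpa3 was 3.07.

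Of 11 compared Snrp genes, 3 (27.3%) were lower and none higher in KO by 1 or more. The shares over all compared genes were 28.0% and 11.4%. The family median was -0.54, beside -0.36 over all compared genes. The Snrp median was 0.62 without the KO cells of few genes and also 0.62 with cells shifted to the same median. It was 0.10 for medians over cells and 0.28 over cells with Xist under 1 RPKM. Over all compared genes, the median was 0.22, 0.79, -0.33 and 0.13 in these settings. All 3, Snrpd2 (-2.24), Snrpd3 (-1.72) and Snrpb (-1.33), belong to the Sm ring, while Snrpe, Snrpf and Snrpg differed by -0.29, -0.33 and 0.12. Over detecting cells Snrpd2 differed by 0.024, Snrpb by 0.021 and Snrpd3 by -0.36. The median cells of Snrpb differed by 0.092, and the difference of means was within 1 without KO cell 1 (-0.98), 9 (-0.71) or 10 (-0.71) and -2.06 without wildtype cell 13. Without the KO cells of few genes, Snrpd2 differed by -0.98 and Snrpd3 by -0.31. The 4 genes of U1 and U2 differed by -0.78 (Snrpa) to 0.76 (Snrpb2), all within 1.

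Of the SF3 genes, 2 Sf3a and 6 Sf3b were compared. None was lower and 2 (25.0%) were higher by 1 or more, beside 28.0% and 11.4% of all compared genes. Sf3a1, 1 of the 2 genes behind the Sf3a median of 1.21, was higher in KO by 1.43 and Sf3b6 by 1.41, and Sf3a3 by 0.98. Sf3b6 was detected in 11 of 12 KO cells, against 7 of 9 wildtype cells, and over detecting cells differed by 0.52. Its difference over all cells was within 1 without KO cell 10 (0.99) or without wildtype cell 13 (0.75), 15 (0.90) or 16 (0.75). Sf3a3, detected in nearly all cells, differed by 1.49 over detecting cells. Sf3a1, which passed the filter through KO cells alone, was higher by 0.55 without the KO cells of many genes. Those cells hold a large share of its detecting cells. Sf3b1, the subunit at the core of SF3B, differed by -0.02 and Sf3b2 by 0.47.

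Other splicing genes were described from 8 lists covering further parts of the machinery, 117 listed genes of which 77 were compared. Of these, 29 (37.7%) were lower in KO by 1 or more and 8 (10.4%) higher, beside 28.0% and 11.4% of all compared genes. Their median was -0.57 over all cells and 0.06 over detecting cells. When only detecting cells were averaged, 7 were lower and 10 higher by 1 or more, beside 13.2% and 14.3% of all genes so compared. Among 12 compared snRNP proteins outside the families above, 6 were lower and none higher, led by Snrnp27 (-3.26), a protein of the tri-snRNP, Prpf31 (-2.46), which bridges U4/U6 and U5, and Snrnp25 (-1.64), of the minor spliceosome. Among 8 compared Sm-like genes, a list that includes the proteins of the U6 ring, 4 were lower and none higher. They were led by Lsm2 (-2.59), Lsm4 (-1.78) and Lsm6 (-1.63). Of 7 compared exon junction complex genes, 4 were lower and 1 higher, with Magohb at -1.91, Rnps1 at -1.90 and Upf3b at 1.58. Of 9 compared SR-related genes and SR kinases, 3 were lower and none higher, namely Srrm1 (-3.07) and Srrm2 (-2.57), both splicing coactivators, and Tra2a (-1.99). Among 18 compared other regulators, 5 were lower and 1 higher, among them Sfpq (-2.73), a paraspeckle protein, and Qk (-1.56). Over detecting cells the differences were -0.08 for Snrnp27, -2.13 for Prpf31 and 1.09 for Snrnp25. Lsm2, Lsm4 and Lsm6 then differed by -0.25, 0.24 and -0.97, and Magohb, Rnps1 and Upf3b by 0.53, -0.47 and 1.14. Srrm1, Srrm2 and Tra2a then differed by -2.01, -1.10 and -0.61, and Sfpq and Qk by -0.81 and 0.19.

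The remaining lists were mixed. Of 10 compared genes of branch point and 3′ splice site recognition, 3 were lower and 2 higher. Phf5a, a further subunit of SF3B outside the naming rule, was higher by 2.25, while Rbm17 differed by -2.17 and U2af1l4 by -1.26. Of 6 compared genes of the Prp19 complex and catalytic helicases, 2 were lower and 2 higher, with Isy1 at 2.02, Dhx38 at -1.48 and Syf2 at 1.44. Of 7 compared genes of the SMN complex and of Sm assembly, which load Sm rings onto small nuclear RNAs, 2 were lower and 2 higher, with Gemin7 at 2.56, Prmt5 at -1.79 and Ddx20 at -1.33. Over detecting cells, Phf5a differed by 2.36, Rbm17 by -0.47 and U2af1l4 by -0.49. Isy1, Dhx38 and Syf2 then differed by 2.67, -0.24 and 1.29, and Gemin7, Prmt5 and Ddx20 by 1.01, -0.16 and -0.20. Each list's counts are descriptions beside the 28.0% and 11.4% of all compared genes.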

How the data were processed

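RNA was measured in 22 single T1 pre-HSCs, and the 26 adult cells and 5 methylation libraries of the series were not analysed here. The deposited values are RPKM per gene and cell. The submitters' processing notes name Cufflinks 2.1.0 and mm10. Neither aligner nor annotation, nor what was done with multi-mapped reads, is stated in the labels. RPKM scales to each cell's total, so a few high genes lower all others. The depth is unknown, and an exact 0 may be a failed estimate. Without a stated strand, overlapping genes cannot be separated.

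Each difference is the KO mean of log2(RPKM + 1) less the wildtype mean (pseudocount 1), for genes that reach 1 RPKM in 50% or more of either genotype's cells. They were computed with pandas 2.3.3, numpy 2.4.6 and scipy 1.17.1 in Python 3.11.15 and checked on simulated data. Clopper-Pearson 95% intervals cover counting error over cells only. Wildtype cell 19 was left out as out of register.

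Members described in full were, per family (Sf3a with Sf3b), the 3 highest in wildtype cells, up to 2 with the largest difference in each direction of at least 1, those detected in every cell, Snrpn and Snrpb, which gave 21 genes. Further members were added to show counts after their values were seen. Other lists are named by up to 3 of their largest differences. A gene that this rule names is not reported here. Ptbp1, on the list of other regulators, is not in the table used. The members and lists were chosen with earlier results of these data known. Alternatives were 2 other pseudocounts, 2 rescalings, medians over cells, 2 other filters, 4 other sets of cells and each cell left out, and, chosen after seeing the data, KO cells within the wildtype range of detected genes and means over detecting cells.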

Additional observations from a re-analysis of the deposited data

Results flagged for a closer look

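Among the 9 wildtype cells, the values of the 21 members described in full and 7 summary measures were searched for a single cell far from the rest by Dixon's criterion, and 7 of 28 measures had one. Chance gives about 1 in 20 groups where values are normally distributed, and with missed genes at or near 0 that rate may not hold here. On the scale of log2(RPKM + 1), wildtype cell 15 stood low for Srsf3 (3.26), Srsf6 (0.52) and Snrpd3 (0.50). Wildtype cell 13 stood low for Snrpb (2.20) and Srsf10 (0), and wildtype cell 17 for Snrpd2 (2.98). Wildtype cell 16 stood high for Sf3a1 (4.71), as the 1 wildtype cell in which that gene was detected. These cells had 3128, 2067, 3752 and 4176 genes detected, in the order named. The KO group was not searched in this way, since only the cutoff for 9 values was set.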

How the results depend on the processing

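No paired analysis was possible because KO cells are numbered 1 to 12 and wildtype cells 13 to 22, so no number is shared. The count of lower members, 12 over all cells, was 6 with a pseudocount of 10, 6 with cells shifted to equal medians, 7 for medians over cells, 6 without KO cells of few genes, 21 without KO cells of many genes and 4 over detecting cells. Over all genes, the shares lower were 11.0%, 6.21%, 37.5%, 14.1%, 57.5% and 13.2% in these settings, beside 28.0%. The count of higher members, 4 over all cells, was 7 with a pseudocount of 0.1, 2 with a pseudocount of 10, 18 with equal medians, 13 without KO cells of few genes, 7 over cells with Xist under 1 RPKM and 10 with KO cells within the wildtype range, with all-gene shares of 16.2%, 4.03%, 42.2%, 25.9%, 26.8% and 14.5%, beside 11.4%. Leaving out each cell in turn gave 9 to 19 lower and 3 to 8 higher members, and medians of -0.57 to -0.12 over members, -1.16 to -0.41 for Srsf, -0.63 to -0.17 for Hnrnp, -1.13 to -0.22 for Snrp, 0.78 to 1.55 for Sf3a and -0.18 to 0.35 for Sf3b. Among all compared genes, 23.4% to 37.8% were then lower and 7.91% to 14.8% higher, with medians of -0.65 to -0.20. The 19 came without wildtype cell 15, where 32.1% of all genes were lower. Higher members numbered 7 without KO cell 1 or wildtype cell 18 or 20, where 14.8%, 13.9% and 11.4% of all genes were higher. They numbered 8 without KO cell 9 or wildtype cell 21 or 22, where 14.0%, 11.6% and 13.3% of all genes were higher. Of the 21 members described in full, 11 changed sign in at least 1 of 13 settings. Of these, 8 lay within 1 over all cells, and Srsf5, Hnrnpk, Snrpe and Sf3b1 turned in 5 or 6 settings. The 3 others lay beyond 1, and their directions turned for Srsf10 with equal medians (0.093), for Snrpb with medians over cells (0.092), without KO cells of few genes (0.059) and over detecting cells (0.021), and for Snrpd2 over detecting cells (0.024). The member median turned to 0.85 with equal medians, 0.33 without KO cells of few genes and 0.06 over cells with Xist under 1 RPKM, where the medians of all genes were 0.79, 0.22 and 0.13. Of the causes, only the shift of scale and the choice of cells follow from how these alternatives were built, and no other cause was tested. With 9 and 12 cells and unknown depth, a gene missed by a library and a gene not expressed cannot be told apart.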
